A study of Homo sapiens with 2 samples.

Results

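The subtelomeric H3K9me3 peaks of KBM7 cells are the peaks that lie within 2 Mb of the end of an autosome arm. A peak was taken when its midpoint lay within 2 Mb of coordinate 1 of chromosomes 1 to 22, or within 2 Mb of the highest coordinate that the deposited peak and gene tables hold for that chromosome. The short arms of the 5 acrocentric chromosomes 13, 14, 15, 21 and 22 were left out, which left 39 arm ends, 17 of short arms and 22 of long arms. The rule found 5983 peaks among the 126965 peaks of the study and the 121168 peaks of the autosomes, and position alone chose them. KBM7 is a human leukemia line (chronic myeloid) with a near-haploid karyotype. Its chromatin was crosslinked with formaldehyde, sheared by sonication and precipitated with the Abcam antibody ab8898 against trimethylated lysine 9 of histone H3, or with IgG. The study holds 1 library of each kind, the IgG library was not analysed here, and coordinates are those of hg19. With 1 H3K9me3 library there is no replicate error and no test, and intervals at 95% cover counting error only.

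H3K9me3 is the histone mark of constitutive heterochromatin, written mainly by SUV39H1, SUV39H2 and SETDB1 and bound by HP1 proteins. Subtelomeres are the gene-bearing stretches between the telomere repeats, whose unit is TTAGGG, and the unique part of an arm, and they hold duplicated blocks and gene families shared between arms. Several human subtelomeres also hold clusters of KRAB zinc finger genes, whose products bind transposable elements and recruit SETDB1 through TRIM28, and the bodies of these genes are themselves known to carry H3K9me3.

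The sequence around the start of 5 genes is shown because a subtelomeric peak covered the whole window there and because the genes stand for different groups described below. The windows run from 250 bases before to 50 bases after the start, come from RefSeq on GRCh38.p14, and are written 5′ to 3′ on the strand of the gene with each CG dinucleotide in capitals. The peaks were called on hg19, so peak coordinates and window coordinates are not on one scale. ZNF595 is a zinc finger gene of 4p (chr4:53071-53370, plus strand), ZNF418 one of 19q (chr19:57935353-57935652, minus strand), SLC6A18 an amino acid transporter gene of 5p (chr5:1225131-1225430, plus strand), DMRT1 a gene for a transcription factor of testis development on 9p (chr9:841447-841746, plus strand), and DEFB128 a beta-defensin gene of 20p (chr20:189662-189961, minus strand). ZNF418 and DMRT1 were chosen after their values were seen.
ZNF595: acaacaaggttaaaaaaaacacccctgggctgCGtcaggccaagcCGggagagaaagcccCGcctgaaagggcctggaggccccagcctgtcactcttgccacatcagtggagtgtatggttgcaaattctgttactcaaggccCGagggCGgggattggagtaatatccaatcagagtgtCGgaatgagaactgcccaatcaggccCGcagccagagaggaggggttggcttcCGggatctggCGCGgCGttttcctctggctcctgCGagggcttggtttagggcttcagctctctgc
ZNF418: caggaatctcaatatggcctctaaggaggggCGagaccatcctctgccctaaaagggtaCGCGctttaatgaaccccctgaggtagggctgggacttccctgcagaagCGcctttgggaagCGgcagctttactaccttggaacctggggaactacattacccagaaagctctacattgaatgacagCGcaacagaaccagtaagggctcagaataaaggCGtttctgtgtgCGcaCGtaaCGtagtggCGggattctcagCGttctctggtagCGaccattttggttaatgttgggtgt
SLC6A18: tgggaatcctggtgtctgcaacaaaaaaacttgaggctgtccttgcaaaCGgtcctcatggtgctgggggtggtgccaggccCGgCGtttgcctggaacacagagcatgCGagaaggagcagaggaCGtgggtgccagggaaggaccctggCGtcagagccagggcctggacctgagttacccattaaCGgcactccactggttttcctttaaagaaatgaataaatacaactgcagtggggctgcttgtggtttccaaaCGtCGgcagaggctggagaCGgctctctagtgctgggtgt
DMRT1: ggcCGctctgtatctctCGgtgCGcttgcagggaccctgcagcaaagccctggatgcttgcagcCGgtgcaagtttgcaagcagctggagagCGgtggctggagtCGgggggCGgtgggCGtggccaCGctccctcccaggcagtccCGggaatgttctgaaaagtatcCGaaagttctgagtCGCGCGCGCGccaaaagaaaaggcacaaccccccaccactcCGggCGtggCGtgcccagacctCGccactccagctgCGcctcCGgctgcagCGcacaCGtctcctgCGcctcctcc
DEFB128: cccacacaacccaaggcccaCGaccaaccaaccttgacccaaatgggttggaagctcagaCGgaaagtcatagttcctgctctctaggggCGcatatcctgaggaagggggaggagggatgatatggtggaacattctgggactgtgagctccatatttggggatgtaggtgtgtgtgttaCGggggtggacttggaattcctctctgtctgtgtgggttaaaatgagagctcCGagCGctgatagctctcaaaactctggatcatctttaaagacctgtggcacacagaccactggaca
The windows hold 12 CG dinucleotides at ZNF595, 13 at ZNF418, 10 at SLC6A18, 25 at DMRT1 and 6 at DEFB128. The peaks over them were 32850 bp wide at ZNF595, 16200 bp at ZNF418, 5400 bp at SLC6A18, 4950 bp at DMRT1 and 3300 bp at DEFB128.

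A RefSeq window was found for 828 of the 2160 subtelomeric gene symbols, and for 580 of these the gene length in RefSeq lay within 1 kb of the deposited interval. Among these 580, the 47 starts under a peak had a median of 16 CG dinucleotides, against 34 at the 533 starts with no peak. In the rest of the autosomes the medians were 15 at 597 starts under a peak and 22 at 7856 starts with none. The telomere unit TTAGGG, searched on both strands, was found in 10.6% (3.55 to 23.1%) of the 47 subtelomeric windows under a peak and in 6.38% (4.46 to 8.80%) of the 533 without one. It is found in 9.09% of the 26246 autosomal windows of this length. ZNF595 and ZNF418 have 1 match each, and the other 3 windows have none.

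H3K9me3 peaks were denser, wider and covered more sequence within 2 Mb of the chromosome ends than in the pooled rest of the autosomes, although the density was as high at 2 to 5 Mb (77.6 peaks per Mb) as in the windows. The 78 Mb of subtelomeric windows held 76.7 peaks per Mb (74.8 to 78.7), against 42.4 peaks per Mb (42.1 to 42.6) in the other 2718 Mb of the autosomes, a ratio of 1.81. Peaks covered 17.3% of subtelomeric sequence and 6.24% of the rest, a ratio of 2.78. The subtelomeric windows are 2.79% of the autosomal sequence, and they held 4.94% of the autosomal peaks and 7.38% of the bases in peaks. The ratio of cover exceeded the ratio of density because the subtelomeric peaks were also wider.

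The median subtelomeric peak spanned 1350 bp, with quartiles of 750 and 2550 bp, and the median peak of the rest spanned 900 bp, with quartiles of 600 and 1650 bp. Every peak starts and ends on a 150 bp grid, so widths move in steps of that size. Peaks of the smallest width, 300 bp, made up 8.41% of subtelomeric peaks and 12.6% of the others. Broad peaks, of 10 kb or more, numbered 156 in the subtelomeric windows (2.61%) and 899 in the rest (0.780%), so that 14.8% of the 1055 broad autosomal peaks lay within 2 Mb of an end. Of the 156, 62 lay on chromosome 8, 27 on 19q, 9 on 4p and 58 on other arms, and 25 of the 39 arms had at least 1.

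**Figure D1:**
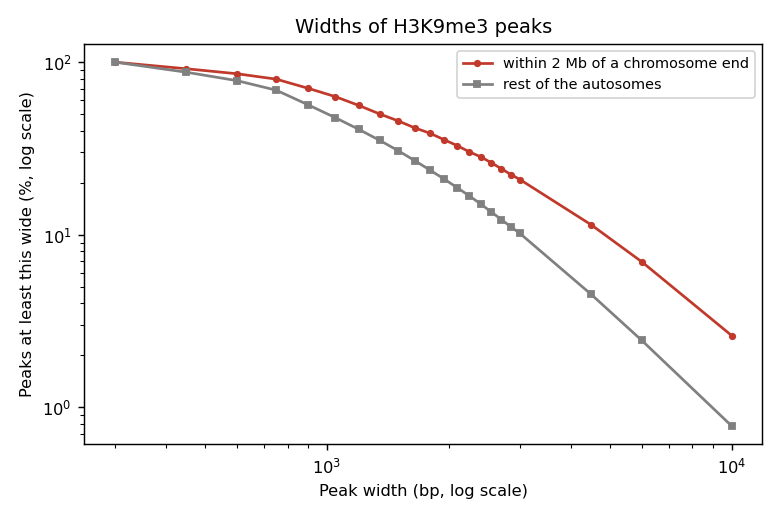
Share of H3K9me3 peaks that are at least as wide as the value on the x axis (bp, log scale), with the share in percent on a log scale on the y axis, for peaks within 2 Mb of a chromosome end (red) and for the rest of the autosomes (grey). The subtelomeric curve lies above the other at every width past the 300 bp minimum, with 20.9% against 10.2% of peaks at 3000 bp or more and 2.61% against 0.780% at 10 kb or more.

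KBM7 cells are known to carry an additional copy of chromosome 8 and a copy of a piece of chromosome 15. The part of copy number in the values of these chromosomes was not tested. Without chromosome 8 in both parts, peaks covered 16.0% of subtelomeric sequence against 5.77% of the rest, and the ratio of cover was 2.76. Without chromosomes 8 and 19, cover was 14.99% against 5.53%, the ratio of cover 2.71 and the ratio of density 1.82. The excess at the ends was therefore measured at nearly the same size without these chromosomes.

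Along the arms, density and cover followed different courses. Density was flat from the end inwards: it was 77.9 peaks per Mb (75.2 to 80.8) within 1 Mb of the ends, 75.5 (72.8 to 78.2) between 1 and 2 Mb and 77.6 (76.0 to 79.2) between 2 and 5 Mb. It was 58.2 peaks per Mb between 5 and 10 Mb and 47.1 between 9 and 10 Mb, still above the 42.4 of all sequence beyond 2 Mb. Cover summed over the arms, in contrast, was highest near the end: it was 20.1% within 0.5 Mb, 18.8% in the next 0.5 Mb, 15.2% between 1 and 2 Mb, 12.9% between 2 and 5 Mb and 8.91% between 5 and 10 Mb. The median width was 1350 bp within 1 Mb, 1200 bp between 1 and 2 Mb, 1050 bp between 2 and 5 Mb and 900 bp between 5 and 10 Mb. The arms 4p, 8q, 12q and 19q contributed to this outward maximum. They were picked for high cover near the end, so lower outer values without them follow from the choice. Without 4p, 8q, 12q and 19q, cover was 14.3% within 0.5 Mb, 15.8% in the next 0.5 Mb, 13.4% between 1 and 2 Mb and 12.1% between 2 and 5 Mb. The median of the 39 arms moved up and down between steps of 200 kb. It was 11.9% in the outermost step and 16.9% in the next. At its highest it was 17.55%, between 1.2 and 1.4 Mb, and at its lowest 8.3%, between 1.4 and 1.6 Mb. Between 2 and 3 Mb it was 14.1%.

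In steps of 200 kb, density within the windows stayed between 73.8 and 81.7 peaks per Mb. Summed cover was highest, at 22.1%, between 0.2 and 0.4 Mb from the end, and lowest, at 13.7%, between 1.6 and 1.8 Mb. Short and long arms differed: the short arms held 66.5 peaks per Mb (63.8 to 69.3) with 14.8% of sequence in peaks, and the long arms 84.6 (81.9 to 87.4) with 19.3%. Their median widths were 1200 bp on short arms and 1350 bp on long arms. In the outermost 200 kb the short arms held 55.9 peaks per Mb and the long arms 87.7. Distances on short arms run from coordinate 1, where the assembly has unplaced sequence, and the first feature of a short arm lies between 5101 and 131910 bp. Counted from that first feature, the outermost 200 kb of the short arms held 68.5 peaks per Mb with 15.4% of sequence in peaks, against 87.7 on the long arms.

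**Figure D2:**
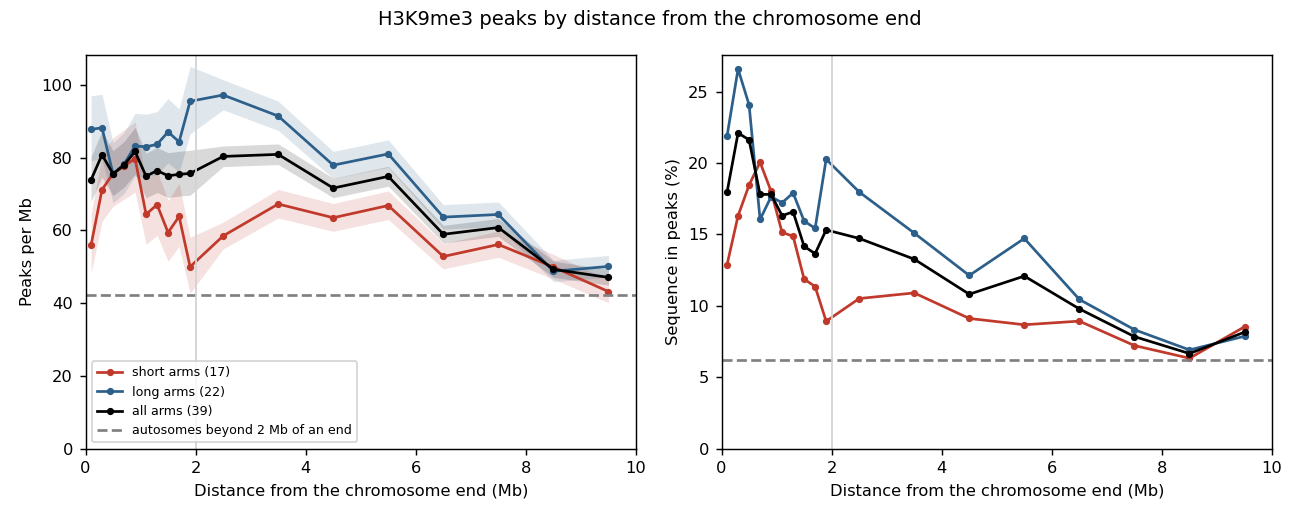
H3K9me3 peaks per Mb (left) and percent of sequence in peaks (right) by distance from the chromosome end in Mb, in steps of 200 kb up to 2 Mb (grey vertical line) and of 1 Mb up to 10 Mb, for 17 short arms (red), 22 long arms (blue) and all 39 arms (black). Bands are 95% Poisson intervals, the dashed line is the autosomes beyond 2 Mb of an end, and the black density line is flat to about 4 Mb while the black line of summed cover falls off from its maximum of 22.1%, a maximum that rests on a few arms.

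Peaks on both sides of the 2 Mb border were of similar widths. The innermost peak inside the window lay between 1.70 and 2.0 Mb from the end, with a median width over the 39 arms of 1650 bp. The first peak beyond the window, on the side of the centromere, lay between 2.001 and 2.35 Mb, with a median width of 1350 bp.

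The arms were far from alike. Density in the outermost 2 Mb ranged from 16.5 to 180 peaks per Mb, with a median of 72.5, and cover from 1.58 to 58.6%, with a median of 16.0%. Compared with the rest of the same chromosome, which comes from the same library, density was higher at 29 of the 39 ends, at 11 of 17 short arms and 18 of 22 long arms. Cover was higher at 34 ends, at 14 short and 20 long arms, and the median width was higher at 33, equal at 3 and lower at 3. Density was at least 2 times that of the rest of the chromosome at 14 ends. The 10 ends with a lower density were those of 1p, 3p, 3q, 11p, 12p, 16p, 16q, 17q, 19p and 20q. Of these, 3q, 11p, 12p, 16p and 20q nevertheless had a higher cover than the rest of their chromosome. The outer 1 Mb held more peaks than the inner 1 Mb on 19 arms and fewer on 20.

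**Figure D3:**
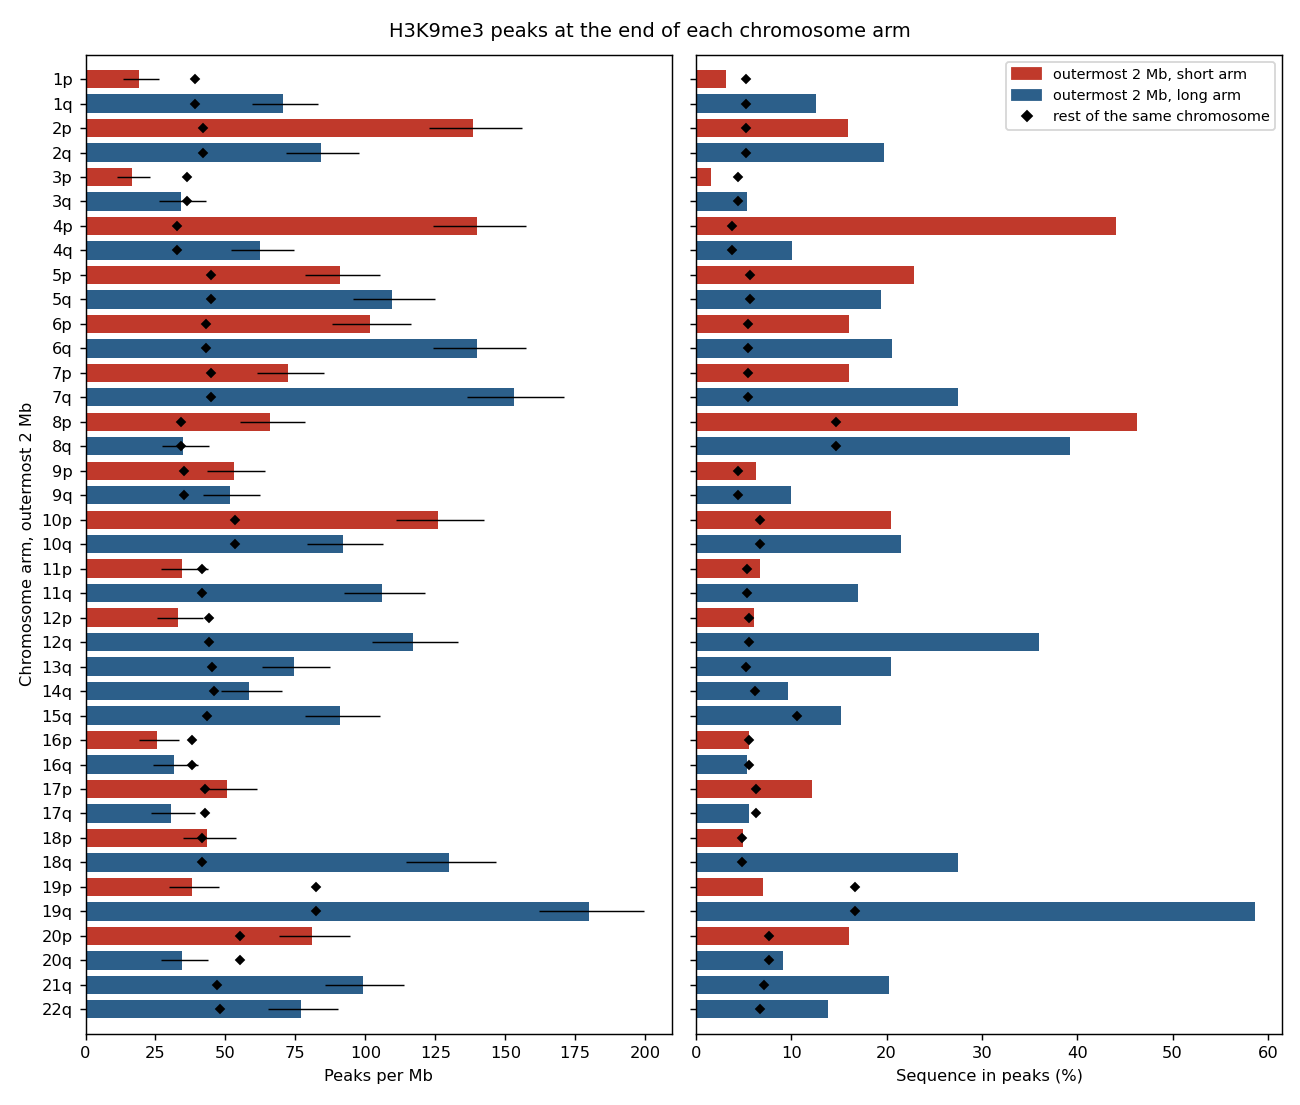
Peaks per Mb with 95% Poisson intervals (left) and percent of sequence in peaks (right) in the outermost 2 Mb of each autosome arm (bars, red for short and blue for long arms), with the rest of the same chromosome as diamonds. The end of 19q has the longest bars (180 peaks per Mb, 58.6% in peaks), that of 3p the shortest (16.5 peaks per Mb, 1.58%), and bars pass their diamond at 29 arms for density and at 34 for cover.

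The end of 19q had the most peaks. It held 360 peaks, 180 per Mb (162 to 200), with 58.6% of sequence in peaks, against 82.2 per Mb and 16.7% in the rest of chromosome 19. No stretch longer than 37.5 kb was free of peaks there. The window holds 79 gene symbols, of which 44 are zinc finger genes, and 70 of the 79 overlapped a peak (88.6%, against 37.1% of all autosomal symbols). Zinc finger genes are counted throughout as symbols of ZNF or ZFP followed by a number, so those with other names are not among the 44. ZNF544 was covered to 99.6% and ZNF274, whose product binds the 3′ ends of other zinc finger genes and recruits SETDB1, to 93.1%. The gene with the highest cover, CTD-2368P22.1, lay wholly in peaks with a gene score of 208 reads per kb. The gene score is the deposited read count of a gene interval divided by its length in kb, with a median of 43.6 over all autosomal symbols. At the other end of the same chromosome, 19p held 38.0 peaks per Mb with 7.09% of sequence in peaks and no zinc finger gene of the list.

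The end of 4p held 280 peaks, 140 per Mb (124 to 157), with 44.1% of sequence in peaks, against 32.8 per Mb and 3.75% in the rest of chromosome 4. Its ratio of cover, 11.8, was the highest of the 39 arms. The cover lay on the outer side: it was 61.2% in the outermost 0.5 Mb, 63.4% in the next, then 42.4% and 9.42%. The peak nearest to the end, from 37951 to 70800, spanned 32850 bp and overlapped ZNF595. MFSD7, a membrane transporter of the major facilitator family, lay wholly in peaks at a score of 152 reads per kb. ZNF721 had the most bases in peaks on the arm, 52.4 kb. The end of 4q, with 62.5 peaks per Mb and 10.1% of sequence in peaks, was covered less.

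The ends of 7q, 6q and 2p had many but narrower peaks. The end of 7q held 306 peaks, 153 per Mb, with 27.5% of sequence in peaks, against 44.7 per Mb and 5.46% in the rest of chromosome 7. One gene, PTPRN2, which encodes a receptor-type phosphatase-like protein of secretory vesicles, spans 1049 kb and carried 217 of these peaks over 344 kb of its length, 32.8% of it. PTPRN2 was chosen after its value was seen, as was each gene given below for the most bases in peaks on its arm. Cover on 7q was even along the window, at 31.0%, 21.5%, 31.3% and 26.0% in its 4 steps of 0.5 Mb. The end of 6q held 280 peaks, 140 per Mb, with 20.5% in peaks, and its innermost 0.5 Mb held 120 of them. The end of 2p held 277 peaks, 138.5 per Mb, with 16.0% in peaks and a median width of 900 bp, the same as in the rest of chromosome 2. AC006003.3 on 7q and RP3-495K2.3 on 6q lay wholly in peaks, and AC093326.3 led 2p with 59.2%.

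Chromosome 8 stood apart by width rather than by number. Its peaks had a median width of 5100 bp at the end of 8p and 6000 bp at the end of 8q, and 2700 bp in the rest of the chromosome, against medians of 600 to 1950 bp at the other 37 ends. The end of 8p held 66.0 peaks per Mb with 46.3% of sequence in peaks, and that of 8q 35 per Mb with 39.3%, against 34.0 per Mb and 14.7% in the rest of chromosome 8. On 8q cover was concentrated outermost: it was 83.0% in the first 0.5 Mb and 8% in the second. A stretch of 329 kb, from 745 to 1074 kb from the end, had no peak. ARHGAP39 had 145 kb of its 157 kb in peaks. On 8p the most covered stretch was the second 0.5 Mb, at 68.2%, and CTD-3212A4.1 had 273 kb in peaks.

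The ends of 12q, 18q and 13q had high cover for their chromosomes as well. That of 12q held 117 peaks per Mb with 35.9% in peaks, against 44.0 per Mb and 5.59% in the rest, and 72.4% of its outermost 0.5 Mb was in peaks. This outermost stretch contains 7 zinc finger genes, ZNF10, ZNF26, ZNF84, ZNF140, ZNF268, ZNF605 and ZNF891. On the same arm the deposited interval of POLE, the catalytic subunit of DNA polymerase epsilon, spans 213 kb and had 95.6 kb in peaks, but it also runs over 6 other gene intervals, among them PXMP2, PGAM5, ANKLE2 and GOLGA3. The end of 18q held 130 peaks per Mb with 27.5% in peaks, against 41.7 per Mb and 4.80% in the rest. Of 14 gene symbols on 18q, none is a ZNF or ZFP symbol with a number, and 12 had a peak (85.7%, against 37.1% of all autosomal symbols). KCNG2, a potassium channel subunit, was covered to 83.8%, and CTDP1, a phosphatase of the RNA polymerase II tail, to 65.5%. The end of 13q held 74.5 peaks per Mb with 20.4% in peaks and 8 broad peaks, and LINC00454 lay wholly in them. High cover at an end was thus found on arms with clusters of zinc finger genes so named and on arms with no gene so named.

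The ends of 10p, 10q, 5p, 5q, 6p, 11q, 15q, 20p and 21q formed a middle group with 81.0 to 126 peaks per Mb and 15.2 to 22.8% of sequence in peaks, each above the rest of its chromosome in both. On 10p, ADARB2, a brain member of the RNA-editing deaminase family, had 162 kb in peaks, 29.4% of its length. On 5q, MAPK9, which encodes the kinase JNK2, had 47.4 kb in peaks, 80.4% of its length. On 5p, IRX4, a homeobox gene of the heart ventricle, was covered to 92.4%, and cover was 8.52% in the outermost 0.5 Mb and 34.7% in the innermost. On 21q, PCBP3, an RNA-binding protein gene, had 81.9 kb in peaks. On 20p, DEFB128 lay wholly in 1 peak.

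The ends of 1q, 2q, 4q, 7p, 14q, 17p, 22q, 9p, 9q and 18p held 43.5 to 84.0 peaks per Mb and 4.94 to 19.7% of sequence in peaks. On 1q the cover lay in the innermost 0.5 Mb, at 34.0%, against 7.29% or less in each of the other 3 steps, and ZNF124 had 37.8 kb in peaks there. On 17p it lay in the outer 1 Mb, at 25.1% and 21.2% in the outer 2 steps of 0.5 Mb against 1.20% and 1.14% in the inner ones, and NXN, the nucleoredoxin gene, had 62.7 kb in peaks. On 9q, CACNA1B, which encodes the pore of a neuronal calcium channel, had 95.9 kb in peaks, 38.8% of its length. On 9p cover was low at 6.29%, and the 3 neighbouring genes DMRT1, DMRT2 and DMRT3, of a family of sex-development transcription factors, each had a peak over the start. They were chosen after this was seen. A start under a peak was found for 10.6% of subtelomeric symbols and 8.62% of all autosomal symbols. The interval of DMRT1 was covered to 13.9%, DMRT2 to 30.5% and DMRT3 to 35.5%.

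The fewest peaks lay at the end of 3p, with 33 peaks, 16.5 per Mb (11.4 to 23.2) and 1.58% of sequence in peaks, against 36.31 per Mb and 4.44% in the rest of chromosome 3. The window on 3p holds 9 gene symbols, and its peaks, with a median width of 600 bp, include 1 that covers CHL1-AS2, an antisense transcript at the neural adhesion gene CHL1, wholly. The end of 1p held 38 peaks, 19 per Mb (13.4 to 26.1) and 3.19%, against 39.2 per Mb and 5.26%, with a stretch of 713 kb free of peaks. Whether reads could be mapped to that stretch was not tested. On 1p, B3GALT6, an enzyme of the proteoglycan linker, had the highest cover, 43.0%. The end of 16p held 51 peaks, 25.5 per Mb (18.99 to 33.5) and 5.60%, and its peak nearest to the end lay at 442 kb. C1QTNF8 on 16p was covered to 42.7% and LMF1, the lipase maturation factor gene, had 46.8 kb in peaks. The end of 17q held 61 peaks, 30.5 per Mb, with 5.56% in peaks, and that of 16q 63 peaks, 31.5 per Mb, with 5.35%. FN3K, the fructosamine kinase gene of 17q, was covered to 41.3%, and AC009113.1 of 16q to 62.6%. The ends of 3q, 11p, 12p and 20q held 33.0 to 34.5 peaks per Mb with 5.40 to 9.17% of sequence in peaks.

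**Figure D4:**
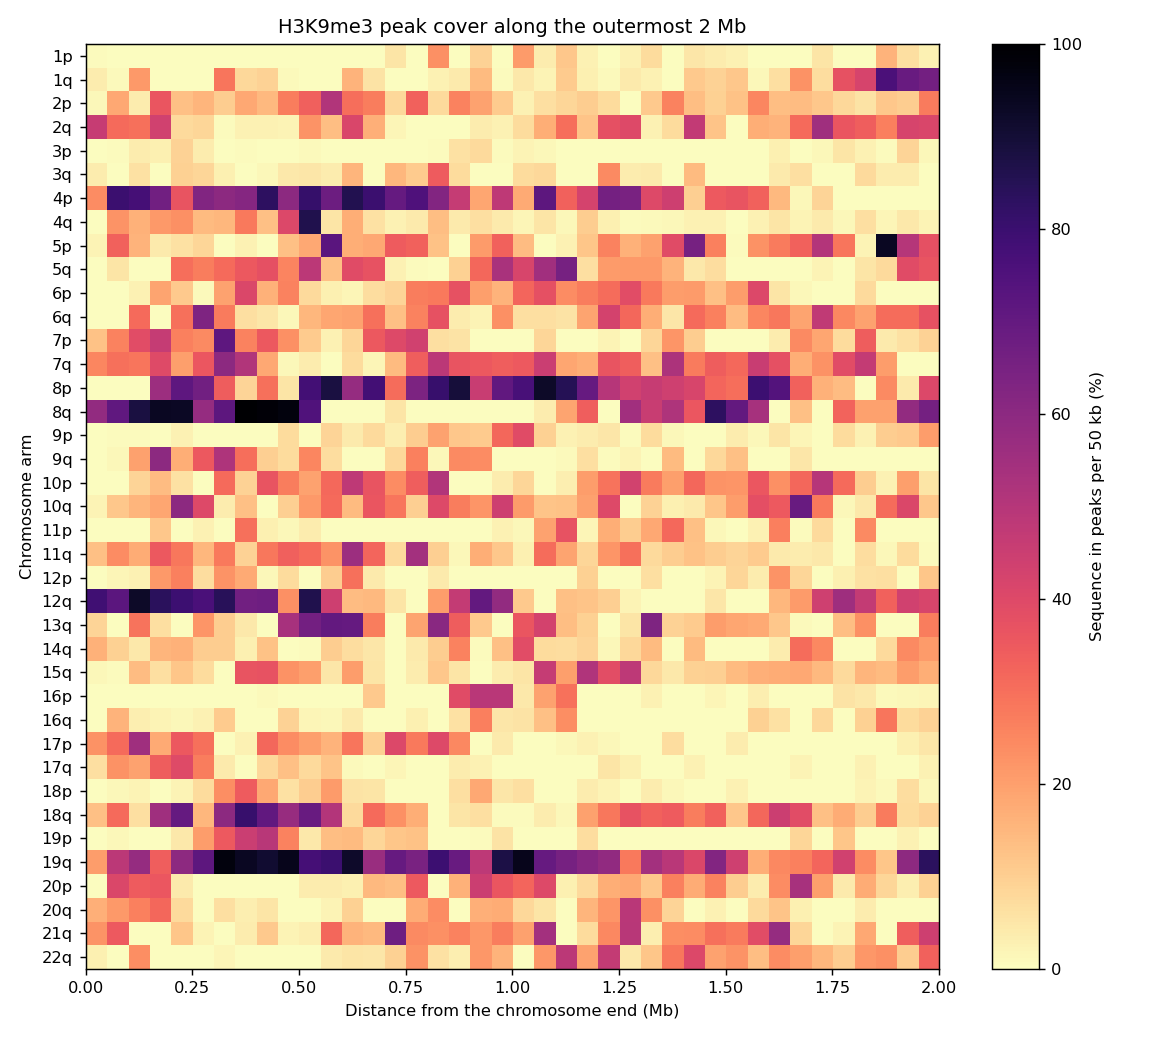
Percent of sequence in peaks in steps of 50 kb along the outermost 2 Mb of each of the 39 arms (rows), by distance from the end in Mb, on a colour scale from 0 (light) to 100 (dark). Dark runs lie in the outer 0.5 Mb of 8q and 12q, whose cover there was 83.0% and 72.4%, along the outer 1 Mb of 4p and along most of 19q, while 1p, 3p and 16p are light over their first 0.5 Mb.

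The peak nearest to the end lay at a median of 37.1 kb over the 39 arms, and between 6.98 kb on 17p and 442 kb on 16p for the short arms. For the long arms the end is itself the highest coordinate of a gene or a peak, so a small distance there follows from the rule, as on 7q, 8q, 10q, 12q, 13q, 15q, 18q, 19q and 20q. The nearest peaks were mostly small: that of 1p spanned 300 bp, that of 2p 750 bp and that of 20p 1350 bp, while that of 7p spanned 6300 bp and that of 4p 32850 bp. The longest peak-free stretch in a window had a median of 210 kb over the arms.

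The 10 widest subtelomeric peaks lay on 8q, 4q, 19q and 4p. The widest, of 94500 bp, ran from 145860001 to 145954500 on chromosome 8 over parts of ARHGAP39 and the zinc finger gene ZNF251. Another 5 lay on 8q: peaks of 37950 and 36000 bp overlapped ARHGAP39, 1 of 40950 bp overlapped ZNF252, 1 of 34500 bp ZNF16 and 1 of 37650 bp RP11-429J17.7. The second widest, 41100 bp from 190471351 to 190512450 on chromosome 4, overlapped no gene interval and lay 522 kb from the end of 4q. On 19q, peaks of 37350 and 35250 bp covered ZNF544 and ZNF274. The tenth, on 4p from 37951 to 70800, overlapped ZNF595. Away from chromosome 8, 19q, 4p and 4q, the widest peaks were 1 of 26700 bp over LINC00452 on 13q, 1 of 24600 bp over MAPK9 on 5q and 1 of 23400 bp over KCNG2 and PQLC1 on 18q, named after their widths were seen.

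Subtelomeric windows are rich in genes, with 27.7 symbols per Mb against 11.8 in the rest, but the peaks did not keep to genes. Of the subtelomeric peaks, 51.0% (49.7 to 52.3%) overlapped a gene interval, against 48.1% of the other peaks, and 49.01% lay between genes. Gene intervals take up 57.2% of subtelomeric sequence and 51.2% of the rest. Peaks covered 16.2% of subtelomeric genic sequence and 5.81% of that in the rest, and 18.8% of subtelomeric intergenic sequence and 6.69% of that in the rest. The ratios of cover were 2.79 inside genes and 2.81 between them, so genic and intergenic sequence differed from the rest by similar factors.

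A gene start lay under 222 subtelomeric peaks (3.71%, 3.25 to 4.22%), against 2.27% of the other peaks. These peaks were wide, with a median of 3450 bp against 2250 bp in the rest. Zinc finger genes were overlapped by 232 subtelomeric peaks (3.88%), with a median width of 3450 bp, against 1.59% and 1500 bp in the rest. The zinc finger intervals make up 2.27% of subtelomeric sequence, were covered to 67.0% and held 8.78% of the bases in peaks. In the rest they make up 0.649% of sequence, were covered to 26.7% and held 2.77% of the bases in peaks. Outside these intervals, where zinc finger genes with other names remain, peaks covered 16.2% of subtelomeric sequence against 6.11% of the rest, a ratio of 2.65.

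Of the 2160 subtelomeric gene symbols, 741 overlapped a peak, 34.3% (32.3 to 36.4%), against 37.3% of the 32120 other autosomal symbols and 37.1% of all 34280. A start under a peak was found for 230 subtelomeric symbols, 10.6%, against 8.49% of the others and 8.62% of all. At least 50% of the interval was in peaks for 216 of 1757 subtelomeric symbols of 1 kb or more, 12.3%, against 3.94% of the others and 4.47% of all, and 64 of the 216 were zinc finger genes. Subtelomeric genes are short, with a median of 6.65 kb against 12.4 kb, and of those of 1 to 10 kb 21.1% overlapped a peak, against 19.9% in the rest. Among genes of 10 to 100 kb, 50.5% (47.0 to 54.1%) of the subtelomeric and 44.7% (43.8 to 45.5%) of the other symbols overlapped a peak. Among those of 100 kb or more 86.6% (78.2 to 92.7%) of the subtelomeric and 90.3% (89.3 to 91.2%) of the others did, and among those below 1 kb 18.9% (15.2 to 23.03%) and 11.7% (10.9 to 12.5%). Among protein-coding symbols 39.3% of the subtelomeric and 44.1% of the others did.

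The gene scores were spread more widely at the ends. Their median was 38.0 reads per kb in the subtelomeric windows, with quartiles of 18.9 and 89.6, and 43.8 in the rest, with quartiles of 24.5 and 76.9. Above the median of all autosomal symbols, 43.6 reads per kb, lay 1003 subtelomeric symbols, 46.4%, against 50.2% of the others and 50% of all. Above the 90th percentile of all autosomal symbols, 147 reads per kb, lay 300 subtelomeric symbols, 13.9%, against 9.74% of the others and 10% of all. Of these 300, 72 are short immunoglobulin segments of 14q, and without such segments the share was 11.5% (10.1 to 12.9%), 228 of 1990 symbols. The order of the medians changed with the window: with 0.5 Mb the subtelomeric median was 45.4 against 43.6 in the rest, with 1 Mb 44.4 against 43.6 and with 5 Mb 43.3 against 43.6. The median score was 45.4 reads per kb in the outermost 0.5 Mb, 42.7 in the next, then 34.2 and 31.3. The share of symbols with a peak was 36.5% in the outermost 0.5 Mb and 30.0% in the innermost.

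Arms with many genes at the end tended to have few peaks. The 13 ends with the fewest symbols, 9 to 33, had a median of 101.5 peaks per Mb, with 16.0% of sequence in peaks. The 13 in the middle, with 39 to 57 symbols, had medians of 84.0 peaks per Mb and 19.7%. The 13 with the most symbols, 59 to 208, had medians of 35 peaks per Mb and 9.17%, but also held the extreme of 180 peaks per Mb on 19q. The median share of symbols with a peak was 46.9% at the gene-poor ends, 47.4% in the middle and 20.3% at the gene-rich ends. The range within each set of 13 was wide, and 3p, with the fewest symbols, also had the fewest peaks.

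Zinc finger genes had the highest share of members with a peak among the 13 gene groups examined. Of 80 subtelomeric members, on 11 arms, 73 overlapped a peak (91.2%, 82.8 to 96.4%), against 350 of 451 elsewhere (77.6%, 73.5 to 81.4%). Of all autosomal symbols 37.1% did. Cover was at least 50% for 64 of the 80, against 4.47% of all autosomal symbols of 1 kb or more. The median score of the 80 was 174 reads per kb, against 105 for those elsewhere. ZNF7 on 8q had the highest score, 502 reads per kb (492 to 512), followed by ZNF16 on 8q with 384 (376 to 393) and ZNF134 on 19q with 380 (367 to 393), and all 3 were covered to about 95%, at 95.3%, 94.5% and 95.3%. ZNF692 on 1q had the lowest, 18.8 (16.1 to 21.9), and no peak. Outside 8q and 19q, 20 of 25 had a peak, with a median score of 154.

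The zinc finger genes differed by arm. All 11 of 8q, all 7 of 12q and all 5 of 4p had a peak, with a mean cover of 76.2% on 8q, 87.1% on 12q and 66.6% on 4p, and 42 of 44 did on 19q, with a mean of 74.2%. Of all symbols at the same ends, 42.1% had a peak on 8q, 69.8% on 12q, 68.4% on 4p and 88.6% on 19q. The count on 19q is near the share there. On 1q, 3 of 5 zinc finger genes had a peak, against 31.25% of all symbols at that end, with a mean cover of 32.9%. On 16q, 1 of 3 had one, against 20.3% of all symbols there. ZNF596 on 8p was covered to 74.6% and ZFP62 on 5q to 67.2%. ZNF511 on 10q had 14.98%, ZNF512B on 20q 5.38% and ZNF750 on 17q, a regulator of skin differentiation, no peak.

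The basic cell function genes at the ends, 13 widely expressed genes, had low scores, with a median of 18.2 reads per kb, and 2 had a peak (15.4%). Their median length is 6.25 kb, and 21.1% of subtelomeric symbols of 1 to 10 kb overlapped a peak, so this count is near that share. ATP5I on 4p, a subunit of ATP synthase, had the highest score with 60.96 reads per kb (50.4 to 73.1), then SDHA on 5p, a subunit of succinate dehydrogenase, with 35.9. UBE2M on 19q, the conjugating enzyme for NEDD8, had the lowest, 8.88 reads per kb (5.95 to 12.8). UBE2M carried no peak and lies 21.5 kb from the end of 19q. The outermost 50 kb there had 20.4% of sequence in peaks, against 58.6% over the 2 Mb window. The 12 genes of the 1p36.33 list scored 19.3 reads per kb in the median, and 1 had a peak (8.33%, 0.211 to 38.5%). At the same end of 1p, 10 of 119 symbols (8.40%) had one, so this count is near that share. The gene with a peak was B3GALT6, at 78.1 reads per kb, while SAMD11 had 30.7, PLEKHN1 28.1 and HES4, a Hairy-type repressor, 10.7.

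The alpha-globin locus at the end of 16p had no peak over any of its 13 members, with a median score of 18.1 reads per kb. A count of 0 of 13 allows a share of up to 24.7%, against 37.1% of all autosomal symbols and 11 of 96 symbols (11.5%) at the same end of 16p. AXIN1, a scaffold of beta-catenin destruction, had the highest score, 32.1 reads per kb, then HBM with 28.6 and RHBDF1 with 26.9. HBZ, the embryonic zeta-globin gene, had the lowest with 6.60 (3.41 to 11.5). The deposited interval of HBM spans 12.9 kb and overlaps that of HBZ. At the end of 11p, 15 of 102 symbols (14.7%) had a peak. The 5 IFITM genes there had none, a count near that share that allows up to 52.2%, and a median of 15.8 reads per kb. They include genes for interferon-induced inhibitors of virus entry, such as IFITM1 and IFITM2. IFITM10 had 88.2, IFITM5 20.3, IFITM1 15.8 and IFITM2, whose interval includes that of IFITM1, 11.1. The 4 mucin genes of 11p15.5 had a median of 39.8, and 3 had a peak, where 50.5% of subtelomeric symbols of 10 to 100 kb, the size of these genes, had one. MUC2 had 79.0 reads per kb and 16.2% cover, MUC5B 42.6 and 6.36%, MUC6 37.1 and no peak, and MUC5AC 17.1 and 4.24%. The 6 KRTAP5 hair keratin-associated genes of 11p had no peak, which allows a share of up to 45.9%. This count is also near the 14.7% of all symbols at the end of 11p. Their median was 55.7 reads per kb, from 31.3 at KRTAP5-4 to 74.9 at KRTAP5-6, with KRTAP5-3 at 73.4 and KRTAP5-2 at 58.2.

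Around TERT, the telomerase reverse transcriptase gene of 5p, 8 of 12 genes had a peak (66.7%, 34.9 to 90.1%), with a median score of 38.2 reads per kb. The share was 37.1% of all autosomal symbols and 50.5% of subtelomeric symbols of 10 to 100 kb, and the median length of the 12 is 34.3 kb. SLC6A3, the dopamine transporter gene, had the highest score, 123 reads per kb (120 to 126), and carried 13 peaks over 64.7% of its length. Its neighbour SLC6A18 had 98.2 (94.0 to 103) and 30.4%. TERT itself had 74.97 reads per kb (72.4 to 77.6), with 3 peaks over 10.4% of its length and none over its start. SLC12A7, a potassium-chloride cotransporter gene of the same stretch, had 14.6 (13.6 to 15.6) and no peak.

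The 6 beta-defensin genes of 20p, which encode antimicrobial peptides, had a median score of 108. A peak was found for 4 of them (66.7%, 22.3 to 95.7%), each time over the start. Among all autosomal symbols 37.1% had a peak and 8.62% had one over the start. Their median length is 2.995 kb, and 21.1% of subtelomeric symbols of 1 to 10 kb had a peak. DEFB128 had 173 reads per kb (154 to 193), DEFB127 138 with 99.8% cover and DEFB125 118 with 62.6%, and DEFB132 had 45.2 (38.3 to 53.0) and no peak. Of the 33 beta-defensin genes elsewhere, 5 had a peak, with a median score of 33.9. Of 54 olfactory receptor genes, on 6 arms, 11 had a peak (20.4%, 10.6 to 33.5%), against 68 of 326 elsewhere, with medians of 77.8 and 85.7 reads per kb. The median length of the 54 is 1.004 kb. Among subtelomeric symbols 18.9% of those below 1 kb and 21.1% of those of 1 to 10 kb had a peak, so the count is near these shares. OR2V2 on 5q had 192 reads per kb and OR2T6 on 1q 174, both wholly in a peak, while OR2Y1 on 5q had 173 and none. OR4F3, the gene nearest to the end of 5q, had 0 reads, which allows up to 3.71 reads per kb. The segments of the immunoglobulin heavy chain locus at the end of 14q, 170 in all with a median length of 0.3715 kb, had a median score of 117, and 24 overlapped a peak (14.1%, 9.26 to 20.3%), against 18.9% of all subtelomeric symbols below 1 kb and 37.1% of all autosomal symbols. The highest scores, 2722 at IGHVIII-38-1, 1929 at IGHVIII-22-2 and 1000 at IGHD4-11, came from 147, 54 and 16 reads on pieces of 0.054, 0.028 and 0.016 kb, so each rests on few reads, and IGHV3-33 had 0 reads.

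Families that are repeated at many ends had few reads. Of 22 members of the end-linked multicopy families, on 10 arms, 9 had 0 reads and 3 had a peak (13.6%, 2.91 to 34.9%), with a median score of 2.03 reads per kb. Among all 2160 subtelomeric symbols 40 had 0 reads, and among all 34280 autosomal symbols 291 did. A peak was found for 37.1% of all autosomal symbols. It was found for 21.1% of subtelomeric symbols of 1 to 10 kb, and the median length of the 22 is 1.26 kb. FAM138D on 12p had 190 reads per kb (173 to 209), OR4F6 on 15q 142 and OR4F15 on 15q 128. In the D4Z4 neighbourhood of 4q35.2, the stretch altered in facioscapulohumeral muscular dystrophy, 6 of 9 members had 0 reads and 1, FRG1, had a peak (11.1%, 0.281 to 48.2%). FRG1 had 63.4 reads per kb (60.2 to 66.8), FRG2 10.7 (7.25 to 15.1), DUX4L4 10.6 (6.17 to 16.96) and DUX4L7 0 (up to 1.98). Reads that map to many copies may have been left out before deposit, and their treatment is not stated in the labels or files, so low H3K9me3 and unmapped reads cannot be told apart for these families.

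**Figure D5:**
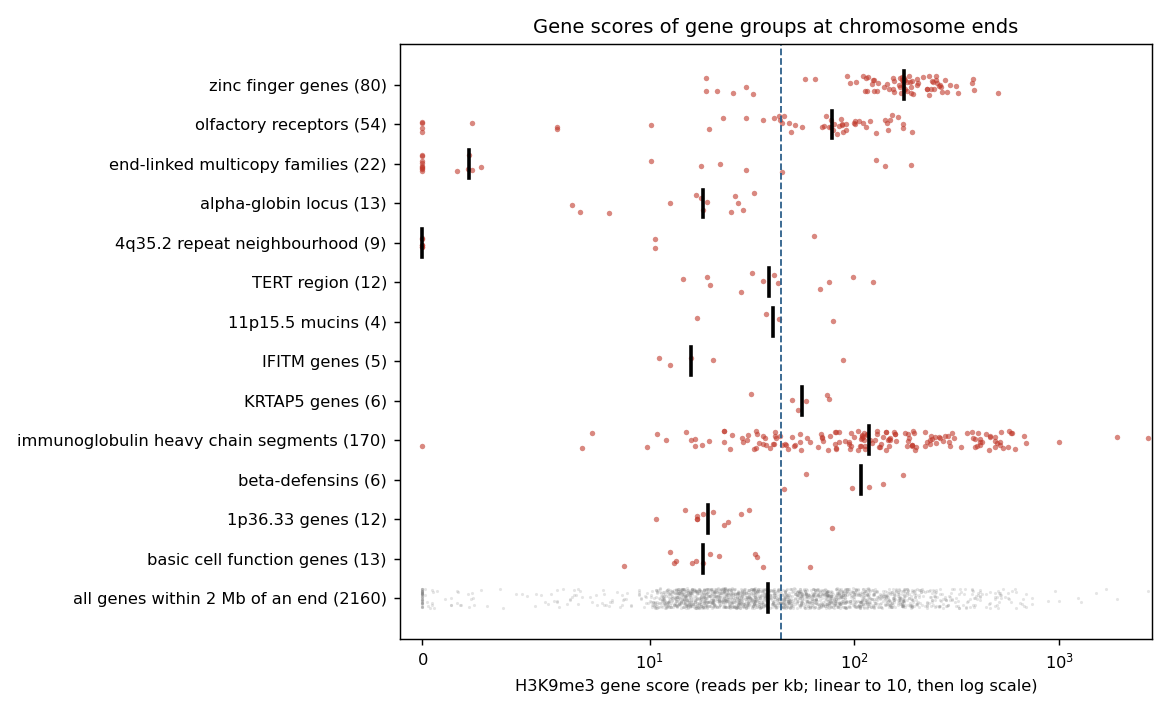
H3K9me3 gene score (reads per kb, linear to 10 and then log scale) of each member (red points) of 13 gene groups within 2 Mb of a chromosome end and of all 2160 subtelomeric symbols (grey). Black bars are medians, and the dashed line is the median of all autosomal symbols, 43.6. Zinc finger genes have a median of 174, beta-defensins of 108 and immunoglobulin segments of 117, while the alpha-globin locus, the 1p36.33 genes and the basic cell function genes have medians of 18.1 to 19.3 and the multicopy families 2.03.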

How the data were processed

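One H3K9me3 ChIP-seq library of KBM7 cells was analysed. The authors deposited a read count per gene interval, not normalised, and a gene score, a signal of reads per kb of interval with no scaling to depth and no correction for copies or IgG. The deposited scores equal count divided by length with a largest difference of 3.03e-06. The authors' deposited peak list gives chromosome, start and end, with no height, fold or significance. The submitters' processing notes name Bowtie2, MACS and hg19 and give no version or role for either tool. Read filters and any use of IgG in peak calling are not stated in the labels or files. The counts sum to 78512210 reads over all intervals, which overlap, so the depth of the library is unknown.

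Windows, peak cover and gene overlap (1 bp or more) were computed in Python 3.11.15 with numpy 2.4.6, pandas 2.3.3 and scipy 1.17.1, in code tested on simulated data. Figures were drawn with matplotlib 3.10.9. A peak or gene belonged to a window by its midpoint, while cover used the bases inside the window. The interval with the highest score stood for a symbol with several (13 subtelomeric symbols). Intervals are exact Poisson for scores and densities and Clopper-Pearson for shares. Neighbouring peaks and overlapping genes are not independent, and reads are not molecules. Of the subtelomeric symbols, 1489 matched RefSeq. The 3 longest gene intervals, of PARP1, MX2 and TMPRSS3, were kept.

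The members and gene lists were chosen with earlier results of these data known. Named were the 10 widest peaks, the 5 arms with the most and the 5 with the fewest peaks with the gene of highest cover (1 kb or more) in each, the 3 highest and the lowest score of each list, and the peak nearest to each end; 1 gene that this rule names is not reported here. Alternatives were other window sizes, chromosomes left out, wider or merged peaks, other starts of the distance and other gene filters.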

Additional observations from a re-analysis of the deposited data

How the results depend on the processing

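Of 104 alternative values of the 9 summary results, 40 stayed within the counting error of the reported value, 22 counts of arms stayed within 1.5 times the reported count, and 42 moved; all 25 ratios to the rest of the autosomes stayed above 1. The gene comparisons with the rest did turn over with the window: the median score exceeded that of the rest with windows of 0.5 Mb (45.4 against 43.6) and 1 Mb (44.4 against 43.6), and the share of genes with a peak did with 5 Mb (38.1% against 37.01%), while both were below it with 2 Mb. With windows of 1 Mb, cover was 19.5%, the ratio of cover 3.06 and the median gene score 44.4 reads per kb. With windows of 0.5 Mb these were 20.1%, 3.12 and 45.4, and 36.5% of genes had a peak. With windows of 5 Mb they were 14.7%, 2.47, 43.3 and 38.1%, and the ratio of density was 1.89. Cover was 16.0% without chromosome 8 and also without chromosomes 8 and 15, where the ratio of cover was 2.85. Without chromosome 19 it was 16.5% and the ratio 2.74. With peaks of 1500 bp or more, density was 35.1 per Mb, cover 14%, median width 2700 bp, the ratio of density 2.69 and that of cover 3.43, fewer peaks being left by construction. Merging peaks across gaps of up to 1 kb gave 48.1 per Mb, 18.3%, 1950 bp and a ratio of density of 1.53. Counting from the first feature of short arms gave a cover of 17.5% and a ratio of 2.80. Leaving 1 Mb bins with no peak and no gene out of the rest gave ratios of 1.76 for density and 2.70 for cover. Among protein-coding symbols 39.3% had a peak, with a median score of 30.3, and among genes of 1 kb or more 37.8%, with 32.8. The remaining alternatives were chosen after seeing the data. Leaving out zinc finger genes gave 32.1% of genes with a peak, a cover of 16.2% and a ratio of 2.65. Leaving out the ends of 4p, 8q, 12q and 19q, which were picked for high cover near the end, gave 72 peaks per Mb and a cover of 14.2%. The ratios were then 1.70 for density and 2.28 for cover. Leaving out immunoglobulin segments gave a median score of 35.3. Unless its construction shows it, the cause was not tested. No paired analysis was possible because the study has 1 H3K9me3 library. With all 39 arms, the arms above the rest of their own chromosome numbered 28 to 34 by density and 31 to 36 by cover; without chromosomes 8 and 15 they numbered 26 and 31 of 36. A single library, peaks without a height and an unknown depth limit every value to a description of this library.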
